A study of Mus musculus with 5 samples.

Results

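Collagen transcripts were measured by RNA sequencing in ear skin of B6 mice that lack Cd1d, which displays lipid antigens to natural killer T cells, and of control mice. The genes described are the collagen alpha chains, chosen as the rows of the deposited count table whose Entrez identifier maps to a mouse symbol of the form Col, number, a, number. Col2a1, Col9a1, Col9a2 and Col9a3 of cartilage, and Col7a1 and Col17a1 of the epidermal anchoring complex, were left out. This gave 38 genes of 27179 in the table, and 44 collagen alpha chains before the 6 were left out.

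Control skin gave 3 libraries and knockout (KO) skin gave 2. The KO samples are titled Cd1d -/-. The control samples are titled Cd1d +/- while their genotype tag says WT, so whether they carry 1 or both alleles cannot be settled from the labels, and they are called controls here. Strain background is given as B6 for all, and age, sex and pooling of animals are not given in the labels used here. Whether the libraries are from different animals is not stated, so the p-values measure the spread between these 5 libraries.

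Collagens are secreted or membrane proteins whose alpha chains wind into trimers with a triple helix. Fibrillar collagens such as types I, III and V build the rope-like fibrils of the dermis. Type IV forms the sheet of the basement membrane under the epidermis and around vessels, and type VI forms beaded filaments around cells. FACIT collagens (fibril-associated collagens with interrupted triple helices) sit on the surface of fibrils. Multiplexins lie at basement membranes, and transmembrane collagens stay anchored in the cell surface. In skin the fibrillar chains are made mostly by dermal fibroblasts, and bulk RNA cannot tell fewer fibroblasts from less RNA per cell.

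Of the 38 collagen genes, 1 fell in KO skin and 0 rose (edgeR quasi-likelihood test, Benjamini-Hochberg adjusted p under 0.05), where 3.76% of all genes passed in either direction and 1.05% in the lower one, against 2.71% in the higher one. The gene that fell was Col25a1, a transmembrane collagen, which was lower by 1.14 on the log2 scale. The chains of the dermal fibrils, Col1a1, Col1a2 and Col3a1, did not pass the test. Most other chains were slightly lower in KO, with a median log2 fold change of -0.22 over the 38 genes against -0.018 over all 17472 genes tested. In the middle range of collagen transcript lengths all genes tested also had a median of -0.22. In narrower length ranges the collagen median lay below that of all genes in some and above it in others, as described with the lengths.

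The 4 stretches that follow are shown for the collagen gene that passed the test, for Col4a5 and Col4a6, neighbours that are read in opposite directions, and for Col3a1, the most abundant chain. Each is up to 250 bases before an annotated start, 5′ to 3′ on the gene's own strand, from RefSeq on build GRCm38.p6. Capitals mark matches on either strand to the core letters of the TATA box (TATAA), to those of the pentamer bound by NF-Y (CCAAT) and to those of the GC box bound by Sp1 (GGGCGG).
Col25a1, chr3:130180595-130180844, plus strand: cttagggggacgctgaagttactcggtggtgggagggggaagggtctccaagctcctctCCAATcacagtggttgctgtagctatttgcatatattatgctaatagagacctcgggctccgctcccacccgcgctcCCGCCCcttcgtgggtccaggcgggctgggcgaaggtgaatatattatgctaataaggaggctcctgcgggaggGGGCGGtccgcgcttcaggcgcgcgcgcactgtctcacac
Col4a5, chrX:141475169-141475369, plus strand: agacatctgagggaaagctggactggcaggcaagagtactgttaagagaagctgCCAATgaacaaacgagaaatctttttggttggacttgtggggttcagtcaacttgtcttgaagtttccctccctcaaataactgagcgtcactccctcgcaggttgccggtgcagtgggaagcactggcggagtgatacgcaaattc
Col4a6, chrX:141474096-141474326, minus strand: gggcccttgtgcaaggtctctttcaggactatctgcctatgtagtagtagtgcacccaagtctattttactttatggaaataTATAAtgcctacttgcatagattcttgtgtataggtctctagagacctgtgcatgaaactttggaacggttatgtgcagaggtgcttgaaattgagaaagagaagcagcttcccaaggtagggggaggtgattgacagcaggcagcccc
Col3a1, chr1:45311288-45311537, plus strand: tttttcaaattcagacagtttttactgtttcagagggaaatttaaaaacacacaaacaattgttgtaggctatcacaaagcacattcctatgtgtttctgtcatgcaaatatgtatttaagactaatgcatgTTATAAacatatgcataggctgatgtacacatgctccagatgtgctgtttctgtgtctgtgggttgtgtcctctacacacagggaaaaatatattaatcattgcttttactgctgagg
The Col25a1 stretch lies inside the RefSeq span of that gene, since another transcript starts further upstream, and no GENCODE exon overlaps any of the 4 stretches. It holds 1 CCAAT and 2 GGGCGG matches. Col4a5 has 1 CCAAT match and Col4a6 has 1 TATAA match, and 1274 bases lie between the spans of these 2 genes. In Col3a1 the capitals cover 2 overlapping matches, TATAA and its reverse complement. Promoter windows of 250 bases were given for 31 of the 38 genes (33 windows). GGGCGG was found in 60.6% of them and in 32.7% of all 32851 windows, CCAAT in 30.3% and 33.8%, and TATAA in 15.2% and 22.8%. A match is a description of the letters and not a binding site.

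Total counts were between 32353957 and 79160005 per library, lowest in control replicate 3. Levels are given as CPM, the counts of a gene scaled to a common library total, after TMM scaling, a scaling between libraries that assumes most genes are unchanged. In the KO libraries Cd1d1 had 61 and 48 counts, and in the controls 557, 757 and 182, so the labels and the targeted gene pointed the same way. Fibroblast markers were present in all 5 libraries, with a summed level of 3119 to 4056 CPM in the controls and 3507 to 3603 CPM in KO. Skeletal muscle markers summed to 5127 to 5474 CPM in the controls and 6856 and 7674 CPM in KO. By edgeR 4 of 10 were higher in KO and 0 lower, where 2.71% of all genes were higher and 1.05% lower. Under the length and GC offsets 2 were higher (3.25% of all genes called in either direction) and under the length offset 0 (0.126%). The median of these muscle markers, 0.45, became 0.22 and 0.25. Adipocyte markers summed to 611 to 992 CPM in the controls and 1185 and 1029 CPM in KO, with 1 of 6 genes higher by edgeR (2.71% of all genes). Hair shaft and sheath markers summed to 653 CPM in KO replicate 1 and to 11.9 to 23.1 CPM in the other 4 libraries. Endothelial markers summed to 266 to 291 CPM in the controls and 253 and 237 CPM in KO, and 0 of 7 passed in either direction by edgeR. At an unadjusted p under 0.05, 3 were lower (10.3% of all genes), and DESeq2 called Cdh5 lower (4.77% of all genes). Pericyte and smooth muscle markers (318 to 384 CPM in the controls, 363 and 366 CPM in KO) overlapped, with 1 of 6 genes higher by edgeR (2.71% of all genes) and 0 under either offset. At an unadjusted edgeR p under 0.05, 1 was lower (10.3% of all genes) and 1 higher (11.6%). DESeq2 called Rgs5 lower and Tagln higher (12.0% of all genes in either direction). Basal keratinocyte markers (13483 to 16074 CPM in the controls, 15112 and 16464 CPM in KO) also overlapped, with 1 of 8 lower (1.05% of all genes). None of these marker genes was at 0 in all libraries. What part these tissues have in the collagen values was not tested.

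The collagen family took 3.16%, 3.33% and 3.89% of all counts in control skin, against 2.80% and 2.87% with KO. As shares of raw counts, both KO libraries lay under all controls. After TMM scaling the summed level was 33278 ± 4384 CPM (SD, n = 3) in controls against 30149 ± 244 CPM (SD, n = 2) with KO, and the groups overlapped. Control replicate 3 was the highest, at 38166 CPM, and without it the KO level was 0.978 times that of the controls, against 0.906 times with it. Col1a1, Col1a2 and Col3a1 together held 79.7% to 82.2% of collagen counts in the 5 libraries. Without these 3 genes the sum was 6371 ± 391 CPM (SD, n = 3) in controls against 5662 ± 346 CPM (SD, n = 2) with KO, without overlap.

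**Figure D1:**
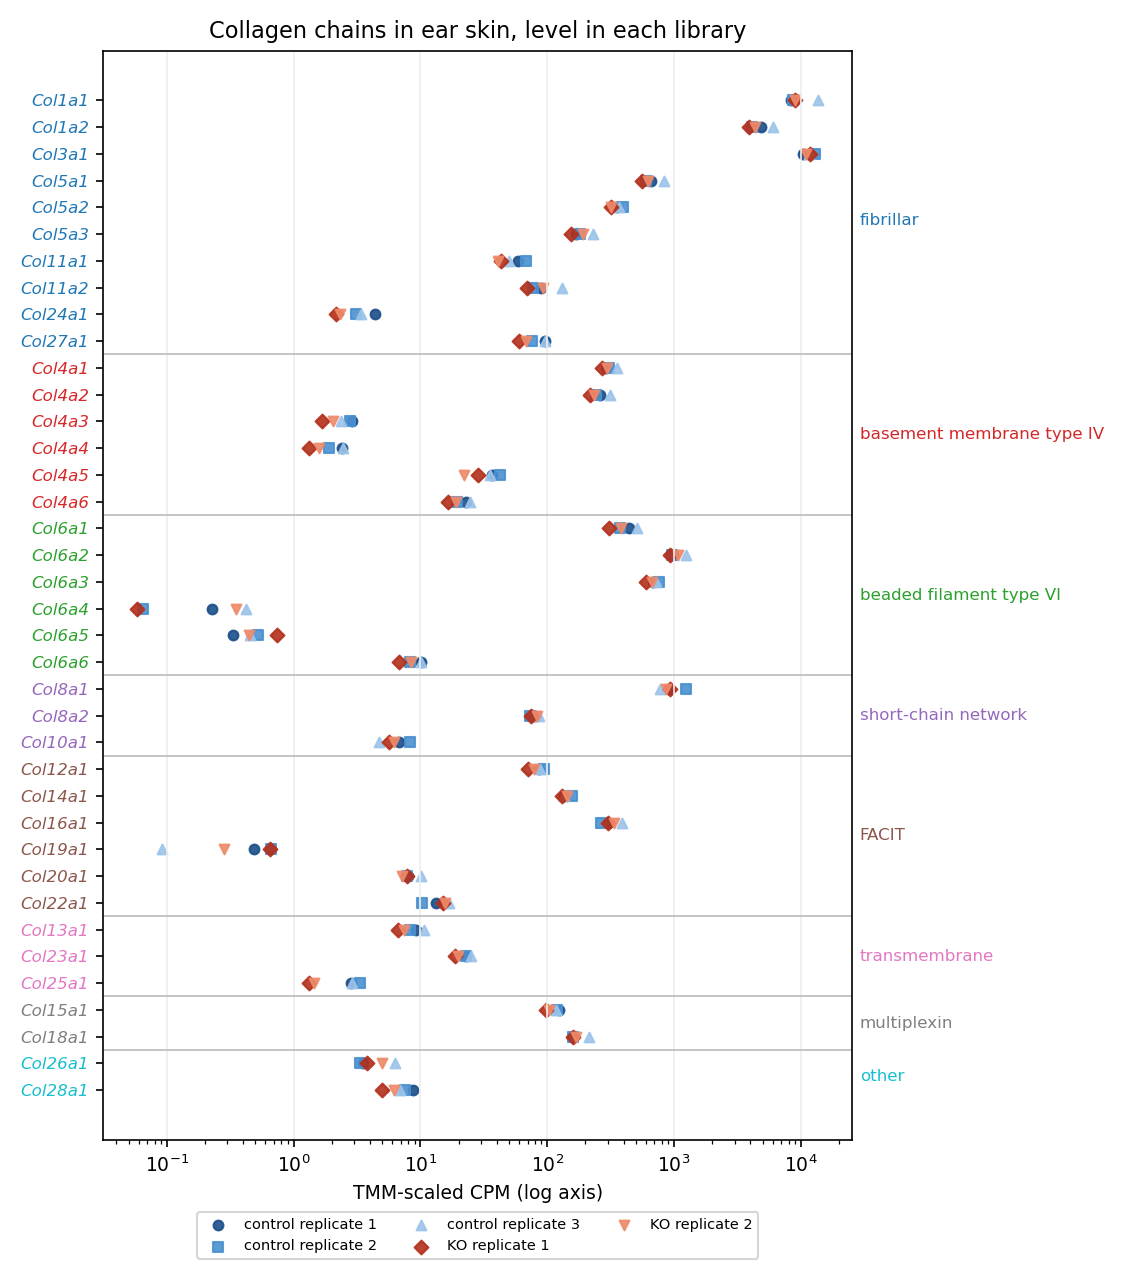
Level of each of the 38 collagen chains (rows, grouped and coloured by class) in the 5 libraries, in TMM-scaled CPM on a log axis. Blue symbols are the 3 control libraries and red symbols the 2 KO libraries. Col6a4, Col6a5 and Col19a1 have the lowest levels and Col1a1 and Col3a1 the highest, and Col25a1 has both KO values at the left of all 3 controls.

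Among the fibrillar collagens, Col3a1 and Col1a1 had the highest levels per length of transcript. Col3a1 encodes the chain of type III collagen, the fibril of extensible dermis, and had 2076 CPM per kilobase as the mean of the 5 libraries. Its level was 10430, 12934 and 11622 CPM in the controls and 11708 and 11057 CPM in KO. Both KO values lay within the range of the controls, and the log2 fold change was -0.035 (SE 0.13, edgeR quasi-likelihood test, adjusted p = 0.909).

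Col1a1, the pro-alpha 1 chain of type I collagen, had 8350, 8642 and 13687 CPM in the controls and 8968 and 9039 CPM in KO. The KO libraries lay between the low and the high controls, and control replicate 3 stood apart as the highest. The fold change was -0.18 (SE 0.20, edgeR adjusted p = 0.635), and without control replicate 3 it was 0.083. Col1a2, the chain that pairs with Col1a1 in type I collagen, had 4882, 4115 and 6059 CPM in the controls and 3883 and 4319 CPM in KO, with a fold change of -0.29 (SE 0.16, edgeR adjusted p = 0.325). The Col1a2 groups overlapped, and without control replicate 3 the fold change was -0.14. Per kilobase Col1a1 exceeded Col1a2 in every library, by 1.54, 1.89 and 2.04 times in the controls and 2.08 and 1.89 times in KO. Counts of Col3a1 were 1.25, 1.497 and 0.849 times those of Col1a1 in the controls and 1.31 and 1.22 times in KO, so control replicate 3 was the single library with more Col1a1 than Col3a1 counts.

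Type V collagen sets the diameter of dermal fibrils by joining type I in the same fibril. Its chain Col5a1 had 658, 596 and 832 CPM in the controls and 562 and 627 CPM in KO, which overlapped (log2 fold change -0.23, SE 0.15, edgeR adjusted p = 0.416), and leaving out control replicate 3 gave -0.077 and leaving out KO replicate 1 gave -0.15. Col5a2 had 353, 393 and 366 CPM in the controls and 320 and 319 CPM in KO. Both KO values of Col5a2 lay under all controls, but the fold change of -0.21 (SE 0.11) did not pass (edgeR adjusted p = 0.304). Col5a3, the least abundant chain of the type, had a fold change of -0.15.

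The fibrillar class also holds minor chains. Col11a1, a type XI chain that nucleates fibrils and is best known from cartilage, had 58.5, 68.2 and 50.2 CPM in the controls and 43.4 and 40.8 CPM in KO (log2 fold change -0.49, SE 0.14, edgeR adjusted p = 0.0866). Its groups did not overlap. Its partner Col11a2 had 88.8, 77.1 and 131 CPM in the controls and 69.5 and 92.3 CPM in KO, which overlapped (fold change -0.29, SE 0.21). With 1 library left out it ran from -0.51 without KO replicate 2 to -0.038 without control replicate 3, with -0.095 without KO replicate 1 and -0.44 without control replicate 2. Col24a1, a fibrillar chain studied mostly in bone, was low, at 4.36, 3.12 and 3.43 CPM in the controls and 2.15 and 2.33 CPM in KO. The Col24a1 groups did not overlap, and its fold change was -0.70 (SE 0.24, edgeR adjusted p = 0.118). Col27a1, a fibrillar chain named here after its values were seen, had 96.6, 76.2 and 95.1 CPM in the controls and 59.9 and 68.1 CPM in KO, with a fold change of -0.48 (SE 0.14, edgeR adjusted p = 0.0821). Col11a1 and Col27a1 passed with DESeq2 (adjusted p = 0.0233 and 0.0213) and not with length and GC offsets in edgeR (adjusted p = 0.334 and 0.0796). Cartilage markers summed to 625 to 748 CPM in the controls and 569 and 631 CPM in KO, with 0 of 11 called in either direction by edgeR. At an unadjusted edgeR p under 0.05, 2 were lower (10.3% of all genes) and 2 higher (11.6%). DESeq2 also called 2 lower and 2 higher (12.0% of all genes in either direction). The part of these markers in the type XI values was not tested.

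All 10 fibrillar genes had a negative fold change, with a median of -0.26, and 0 passed the edgeR test. At an unadjusted p under 0.05, 3 were lower (10.3% of all genes), and DESeq2 called 2 lower (4.77% of all genes). In 4 of the 10 the groups did not overlap with KO lower, as in 20.0% of all genes tested. Fibrillar transcripts are 5348 to 8406 bases long. Among all genes of such lengths that share ran from 39.6% at 5000 to 6000 bases to 52.9% at 7000 to 8000 bases.

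All 6 type IV genes, which encode the network of the basement membrane, were lower on average in KO, and none passed. Their summed level was 653 ± 70.2 CPM (SD, n = 3) in controls against 553 ± 26.9 CPM (SD, n = 2) with KO, 15.3% lower. In 5 of the 6 genes the groups did not overlap, where 20.0% of all genes tested were lower without overlap. That share was 46.0% at 6000 to 7000 bases, 52.2% at 8000 to 10000 bases (the range of Col4a3) and 62.4% at 10000 to 12000 bases (Col4a4). The median log2 fold change of the 6 genes was -0.43. At an unadjusted p under 0.05, 2 were lower by edgeR (10.3% of all genes), and DESeq2 called 1 lower (4.77% of all genes). Type IV genes lie in head-to-head pairs that share a start region, on chromosome 8 for Col4a1 and Col4a2, on chromosome 1 for Col4a3 and Col4a4, and on the X chromosome for Col4a5 and Col4a6.

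Col4a1 and Col4a2 make the common form of type IV collagen in nearly all basement membranes. Col4a1 had 289, 304 and 355 CPM in the controls and 271 and 296 CPM in KO (fold change -0.16, SE 0.13), which overlapped. Col4a2 had 258, 243 and 315 CPM in the controls and 216 and 232 CPM in KO (fold change -0.28, SE 0.14, edgeR adjusted p = 0.262), with no overlap. Per kilobase Col4a1 exceeded Col4a2 in each library, by 1.09, 1.22 and 1.10 times in the controls and 1.22 and 1.24 times in KO. The spans of the 2 genes overlap by 85 bases, and reads there cannot be assigned without strand.

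Col4a5 and Col4a6 encode the chains of epidermal basement membrane whose trimers differ from the common form. Col4a5 (chrX:141475370-141689236) had 36.7, 42.3 and 35.1 CPM in the controls and 28.3 and 21.97 CPM in KO. Both KO libraries lay under every control, with a log2 fold change of -0.60 (SE 0.15), just outside the threshold (edgeR adjusted p = 0.0535). It passed in 7 of 16 alternative fits, among them DESeq2 (adjusted p = 0.00534) and the fit without control replicate 3 (0.00649 in edgeR). With length and GC offsets it missed the threshold (-0.39, edgeR adjusted p = 0.159). Col4a6 (chrX:141165403-141474095), read in the opposite direction from the start region printed above, had 22.9, 19.4 and 24.4 CPM in the controls and 16.5 and 19.1 CPM in KO (fold change -0.32, SE 0.15, edgeR adjusted p = 0.233). The Col4a6 groups also did not overlap, although KO replicate 2 lay just under control replicate 2. Within a library Col4a5 was 1.63, 2.22 and 1.46 times Col4a6 per kilobase in the controls and 1.74 and 1.17 times in KO, so the pair did not keep 1 ratio in either group.

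Col4a3 and Col4a4, the chains known from the filter of the kidney, were near the lower end of the family in ear skin. Col4a3 had 2.89, 2.79 and 2.37 CPM in the controls and 1.66 and 2.05 CPM in KO (fold change -0.54, SE 0.25, edgeR adjusted p = 0.234). Col4a4 had 2.41, 1.90 and 2.46 CPM in the controls and 1.33 and 1.59 CPM in KO (fold change -0.63, SE 0.27, edgeR adjusted p = 0.204). In both genes the groups did not overlap. Their counts in KO lay between 68 and 88, so small differences were not detectable at this depth. The spans of this pair overlap by 114 bases.

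Type IV collagen is joined in the basement membrane by other proteins. Of 16 laminin, nidogen, perlecan, agrin and peroxidasin genes, 1 fell, 0 rose and 15 did not pass in edgeR, with a median of -0.27, and DESeq2 called 6 lower, where 1.05% of all genes were lower by edgeR and 4.77% by DESeq2. The median of these partners became -0.048 once both offsets, on length and GC, were added, against -0.23 for the type IV genes, and the difference between the lists was not tested. The one that fell was Lama3, a chain of the laminin under the epidermis, which had 47.7, 46.9 and 49.6 CPM in the controls and 26.3 and 29.5 CPM in KO (fold change -0.78, SE 0.12, edgeR adjusted p = 0.0186). With length and GC offsets Lama3 still passed (-0.50, edgeR adjusted p = 0.0117), and with the length offset alone it did not (-0.46, 0.171).

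**Figure D2:**
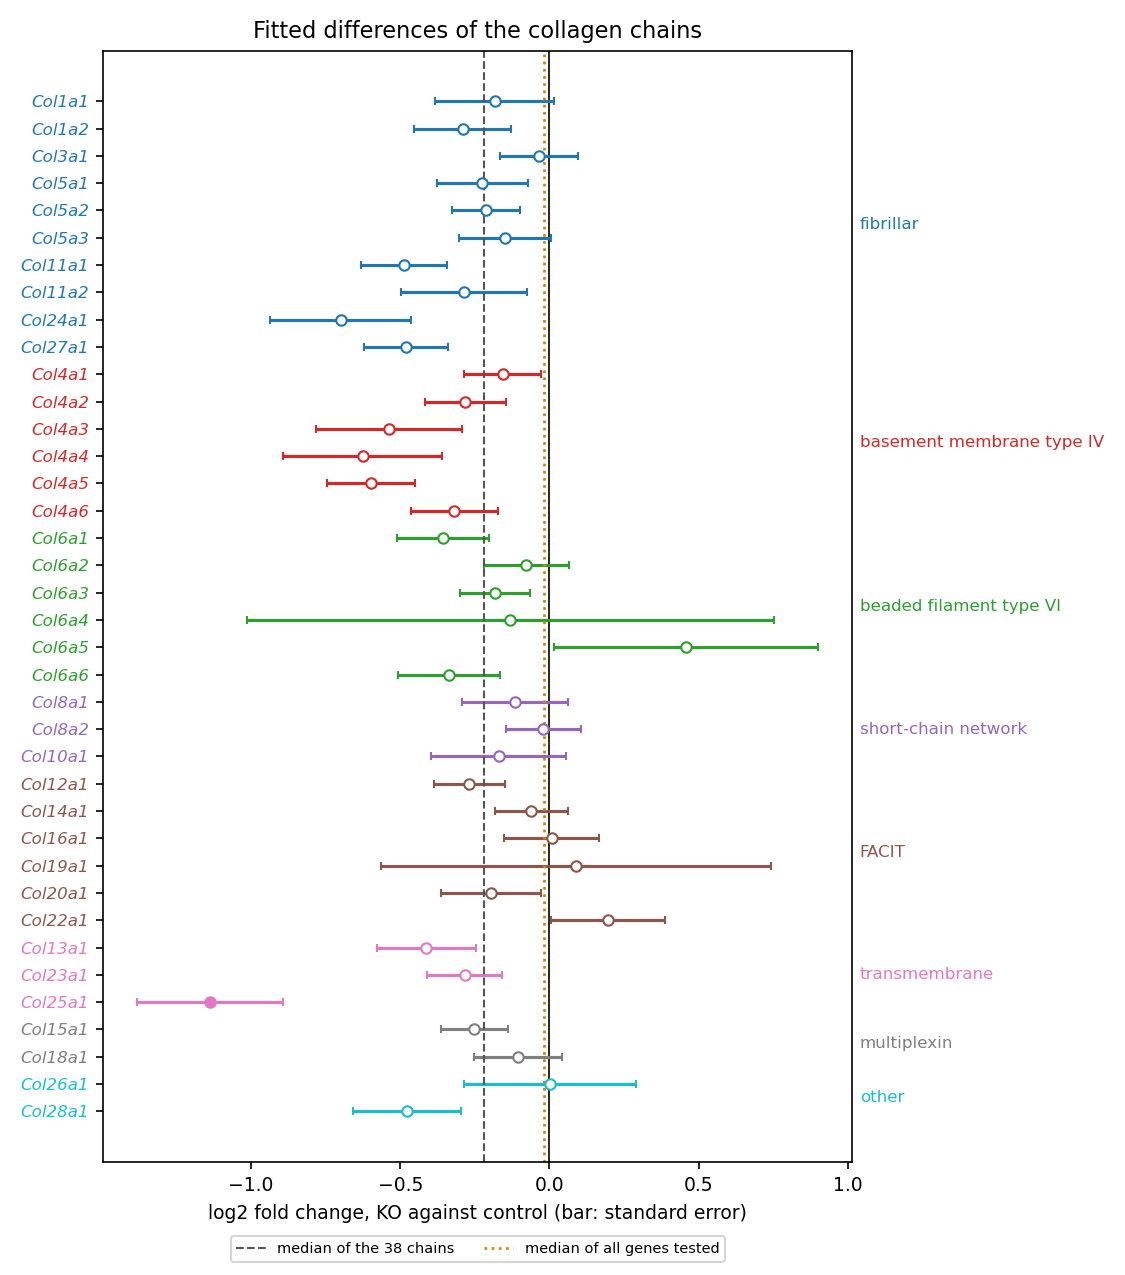
Fitted log2 fold change of each collagen chain, KO against control, with its standard error as a bar, grouped by class. The filled point is the gene past the threshold (Col25a1, -1.14), open points did not pass, the dashed line is the median of the chains (-0.22) and the dotted line that of all genes tested (-0.018).

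Type VI chains did not pass. Col6a2 led the class with 985, 959 and 1235 CPM in the controls and 932 and 1076 CPM in KO, a fold change of -0.078 (SE 0.14, edgeR adjusted p = 0.796), and its groups overlapped. Col6a3, the longest chain of the main type VI trimer, had 681, 759 and 726 CPM in the controls and 598 and 674 CPM in KO. Both its KO values lay under the controls, by a small margin for KO replicate 2 (fold change -0.18, SE 0.12, edgeR adjusted p = 0.400). Col6a1 had 444, 376 and 508 CPM in the controls and 308 and 384 CPM in KO, which overlapped (fold change -0.36, SE 0.15, edgeR adjusted p = 0.211).

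These 3 chains assemble together, so their ratios were followed within each library. Col6a1 was 0.540, 0.469 and 0.493 times Col6a2 per kilobase in the controls and 0.395 and 0.427 times in KO. The longest Col6a2 transcript, used for its length, has no annotated coding sequence. The size of these ratios depends on that length, and the difference between the groups does not. All KO ratios lay under all control ratios, by 0.28 on the log2 scale (-1.0004 ± 0.10, SD, n = 3, and -1.28 ± 0.08, SD, n = 2), with a two-sided exact permutation p = 0.2. That is the smallest p that 3 against 2 libraries allow, so the difference could not reach the threshold. The alternative chains stood apart in level. Col6a6 had 6.72 to 10.1 CPM in the 5 libraries, while Col6a4 and Col6a5, at 0.0587 to 0.744 CPM, had 3 to 40 counts a library. Of the 6 genes, 0 passed in edgeR (DESeq2 also 0, with Col6a4 and Col6a5 given no adjusted p). At an unadjusted edgeR p under 0.05, 1 was lower (10.3% of all genes).

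Ratios between chains that share a trimer or a start region were compared for 9 pairs. None could pass the exact permutation test, since 3 against 2 libraries allow no p under 0.2 (Benjamini-Hochberg adjusted p between 0.9 and 1.0). Besides the type VI pair, Col4a1 to Col4a2 was the one ratio without overlap between groups, and it was higher in KO by 0.12 on the log2 scale (p = 0.2, two-sided exact permutation test). Col8a1 exceeded Col8a2 per kilobase by 7.56 to 14.3 times in the controls and 8.85 and 10.6 times in KO. Col11a1 was 0.303 to 0.699 times Col11a2 per kilobase in the controls and 0.493 and 0.349 times in KO, a wide spread within each group.

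**Figure D3:**
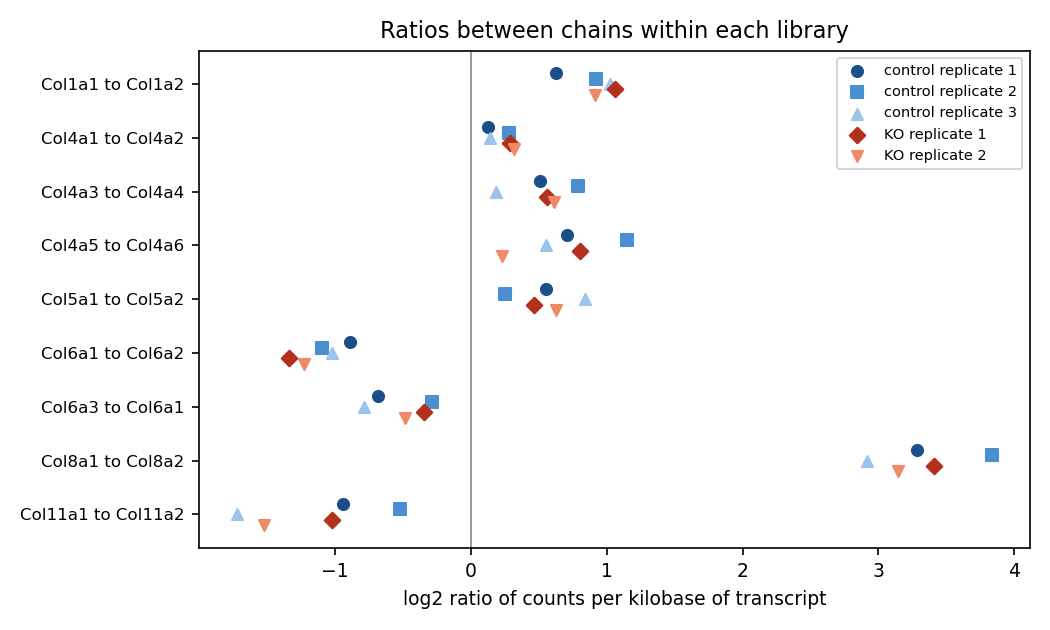
Log2 ratio of counts per kilobase of transcript between 2 chains in each library, for 9 pairs. Blue symbols are control libraries and red symbols KO libraries. The Col6a1 to Col6a2 ratio has both KO values at the left of the controls and the Col4a1 to Col4a2 ratio has them at the right, while in the other 7 pairs the groups overlap.

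The short-chain collagens form hexagonal networks in vessel walls, cornea and growth cartilage. Col8a1 was the fifth most abundant chain per length, at 913, 1232 and 772 CPM in the controls and 927 and 870 CPM in KO. Its KO values lay inside the control range (fold change -0.11, SE 0.18, edgeR adjusted p = 0.753). Col8a2 had 79.6, 73.2 and 86.6 CPM in the controls and 74.0 and 83.3 CPM in KO, also inside that range (fold change -0.020, SE 0.12). Col10a1, the chain of hypertrophic cartilage, was at 4.73 to 8.27 CPM in the 5 libraries with overlapping groups. None of the 3 passed by edgeR or DESeq2, and none had an unadjusted p under 0.05.

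FACIT chains were split in direction, with 3 of 6 negative and a median of -0.027. Col16a1, which joins fibrils to the basement membrane, led the class with 298, 267 and 387 CPM in the controls and 303 and 335 CPM in KO, and a fold change of 0.0074 (SE 0.16, edgeR adjusted p = 0.987). Its KO values lay within the range of the controls. Col12a1 and Col14a1, which coat type I fibrils in dense tissue, had fold changes of -0.27 (SE 0.12) and -0.061 (SE 0.12), and the groups of Col12a1 did not overlap while those of Col14a1 did. Col20a1, a low FACIT chain, had 7.97, 7.86 and 10.1 CPM in the controls and 7.81 and 7.21 CPM in KO, without overlap but by a narrow margin (fold change -0.20, SE 0.17). Col22a1, found at junctions of muscle with tendon, had 13.3, 10.2 and 16.9 CPM in the controls and 15.2 and 15.6 CPM in KO (fold change 0.20, SE 0.19), a member named after its values were seen. The Col22a1 groups overlapped. Skeletal muscle markers were higher in both KO libraries, and their part in the Col22a1 value was not tested. Col19a1 had 3 to 51 counts a library and is too low to compare. By edgeR 0 of the 6 passed (DESeq2 also 0, with Col19a1 given no adjusted p), and 1 was lower at an unadjusted p under 0.05 (10.3% of all genes).

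Both multiplexins, whose ends are cut to release fragments that act on vessels, were well measured in every library. Col18a1, the source of endostatin, had 157, 160 and 213 CPM in the controls and 160 and 168 CPM in KO, which overlapped (fold change -0.11, SE 0.15, edgeR adjusted p = 0.725). Col15a1 had 123, 118 and 117 CPM in the controls and 96.8 and 104 CPM in KO, without overlap (fold change -0.25, SE 0.11, edgeR adjusted p = 0.222). Of the remaining genes Col28a1, a chain with von Willebrand factor domains found around nerves, had 8.75, 7.56 and 6.89 CPM in the controls and 5.01 and 6.14 CPM in KO. Its groups did not overlap (fold change -0.48, SE 0.18, edgeR adjusted p = 0.158). Schwann cell markers summed to 981 to 1085 CPM in the controls and 1020 and 1099 CPM in KO, which overlapped. Col26a1 had 3.36 to 6.31 CPM in the 5 libraries and a fold change of 0.0022.

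The transmembrane class held the gene that fell. Col25a1 (chr3:130180358-130599884, 35 exons in its longest transcript) encodes a collagen of the cell surface that is known from neurons and from amyloid plaques, and from the growth of motor nerves into muscle. It had 241, 257 and 95 counts in the controls and 67 and 62 in KO. Scaled, the control levels were 2.86, 3.35 and 2.88 CPM and the KO levels 1.31 and 1.45 CPM. Both KO libraries lay under every control, with a wide gap between the groups. The log2 fold change was -1.14 (SE 0.24, edgeR adjusted p = 0.0341). The control mean was 3.03 ± 0.28 CPM (SD, n = 3) and the KO mean 1.38 ± 0.10 CPM (SD, n = 2). It ranks 33 of the 38 chains in level per length, so the called gene is among the rarest collagens of ear skin.

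The call of Col25a1 held in 11 of 16 alternative fits. It was lost without control replicate 1 (-1.18, edgeR adjusted p = 0.154), without KO replicate 1 (-1.07, 0.346) and without KO replicate 2 (-1.21, 0.163). It was also lost with an offset on transcript length (-0.89, edgeR adjusted p = 0.187) and on length and GC content (-0.86, 0.0661). The value was negative in all 16, between -1.28 and -0.86. A small nuclear RNA gene, Gm22682, lies within its span, and whether reads were counted by strand is not stated.

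The other transmembrane chains were also lower in both KO libraries. Col23a1, the most abundant of the class, had 22.9, 22.7 and 24.9 CPM in the controls and 18.6 and 19.9 CPM in KO (fold change -0.28, SE 0.13, edgeR adjusted p = 0.219). Col13a1, a chain of cell contacts and of the neuromuscular junction, had 9.20, 8.31 and 10.6 CPM in the controls and 6.64 and 7.40 CPM in KO (fold change -0.41, SE 0.16, edgeR adjusted p = 0.179), and is named here after its values were seen. In all 3 genes the groups did not overlap, as in 20.0% of all genes tested in that direction. In the length ranges of Col13a1, Col23a1 and Col25a1 the share of all genes was 18.2%, 39.6% and 46.0%. Their sum was 35.9 ± 2.20 CPM (SD, n = 3) in controls against 27.7 ± 1.56 CPM (SD, n = 2) with KO, 22.9% lower. This was the class with the lowest KO level relative to the controls among the 8 classes, from a small base.

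**Figure D4:**
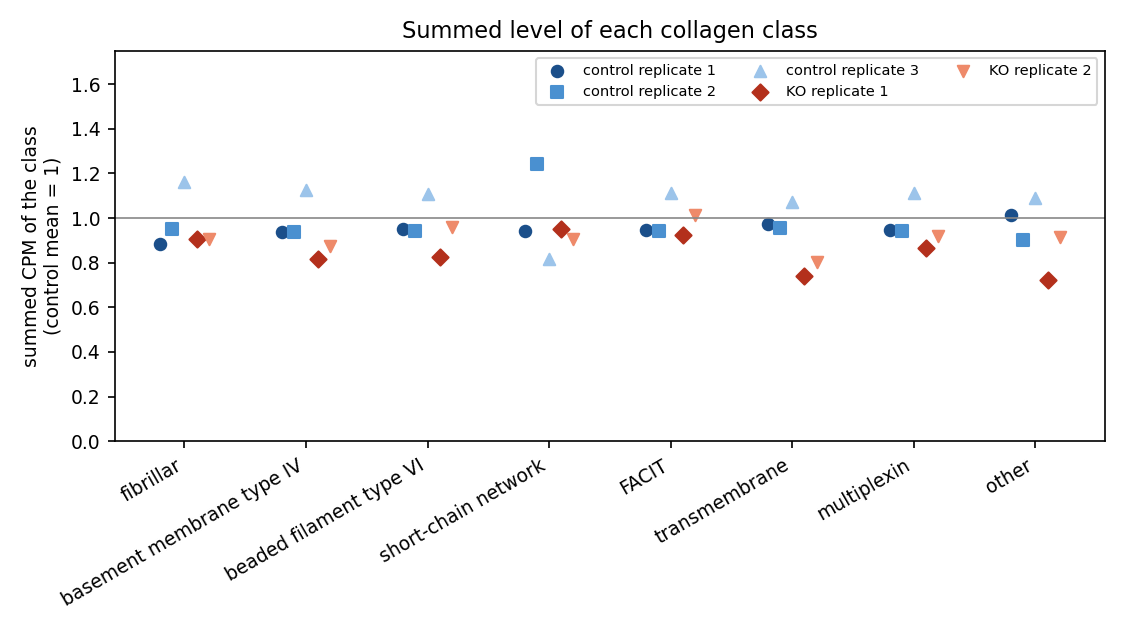
Summed CPM of each collagen class in each library, divided by the mean of the 3 control libraries. Type IV, the transmembrane class and the multiplexins have both KO libraries under all controls. In the other 5 classes the groups overlap, and control replicate 3 is the highest library in every class other than the short-chain network.

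Over the whole family the share of genes called was close to that of all genes. Of the 38 genes, which all passed the filter on low counts, 1 was called (2.63%), against 3.76% of all genes tested in either direction and 1.05% in the lower direction (edgeR). At an unadjusted p under 0.05, 12 were lower (31.6%, against 10.3% of all genes) and 0 higher (against 11.6%). Groups without overlap and lower in KO were found for 17 of the 38 (44.7%), against 20.0% of all genes, and the higher direction had 0, against 19.9%. Negative fold changes were found for 33 of the 38 (86.8%), against 52.4%. By DESeq2 4 were lower, Col25a1, Col4a5, Col11a1 and Col27a1, where 12.0% of all genes were called (4.77% lower). Collagens lower in KO numbered 4 on library size alone (5.57% of all genes lower), 2 without a count filter (1.64%), 2 at 1 CPM in 2 libraries (1.58%) and 3 with the replicate block (4.59%). Without control replicate 3 there were 5 (8.25%) and without control replicate 2 there were 3 (2.99%), while leaving out KO replicate 2 gave 0 (0.0386%) and leaving out control replicate 1 or KO replicate 1 gave 0 (0.0% of all genes lower in either).

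The shift of the collagens was set beside transcript length, since longer transcripts had lower values in KO across all genes. Collagen transcripts are long, with a median of 6284.5 bases (2781 to 11511) against 3271 for the tested genes with a known transcript. Among all 2065 tested genes of 5180.5 to 7551.75 bases, which is the range between the lower and upper quartile of the collagens, the median log2 fold change was -0.22. Of those genes 43.9% were lower in KO without overlap and 84.3% were negative. The 18 collagens in that range had a median of -0.20, with 7 lower without overlap and 16 negative. In narrower length ranges the collagen medians lay on both sides of those of all genes. The 4 collagens of 7000 to 8000 bases had a median of -0.48 against -0.28 for all 490 genes of that length. Also below were the 2 of 3000 to 4000 bases (-0.29 against -0.039) and the 4 of 4000 to 5000 bases (-0.22 against -0.12). The 9 of 6000 to 7000 bases (-0.28 against -0.24) and the 1 of 2000 to 3000 bases (0.0022 against 0.059) were below too. Above were the 10 of 5000 to 6000 bases (-0.15 against -0.20) and the 5 of 8000 to 10000 bases (-0.23 against -0.32). The 3 of 10000 to 12000 bases were also above (-0.27 against -0.32).

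With an offset that removes each library's own trend on transcript length, the collagen median moved to -0.032, 20 of 38 were negative (against 50.4% of all genes) and 0 passed in edgeR (3 lower and 1 higher at an unadjusted p under 0.05). In that fit 0.126% of all genes were called (0.0286% lower). Of the 17472 genes tested, 2113 had an unadjusted edgeR p under 0.05 there, in either direction. With both length and GC content the median was -0.10, 26 of 38 were negative (against 50.5%) and 0 passed. Of all genes 3.25% were called in that fit (0.647% lower). At an unadjusted edgeR p under 0.05, 8 collagens were lower and 1 higher, where 3346 of the 17472 genes passed in either direction. Class medians with the length offset were -0.41 for the transmembrane class, -0.16 for type IV, -0.025 for the fibrillar genes and 0.10 for type VI. The remaining class medians were 0.18 for FACIT, 0.055 for the short-chain network, 0.0020 for the multiplexins and -0.20 for Col26a1 and Col28a1. Col1a1, Col3a1, Col5a1, Col4a1 and Col6a2 were among the genes whose sign turned with this offset, to 0.023, 0.16, 0.062, 0.083 and 0.072. Across the 38 genes Spearman's rho between fold change and transcript length was -0.24, a description over genes that share the same libraries.

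**Figure D5:**
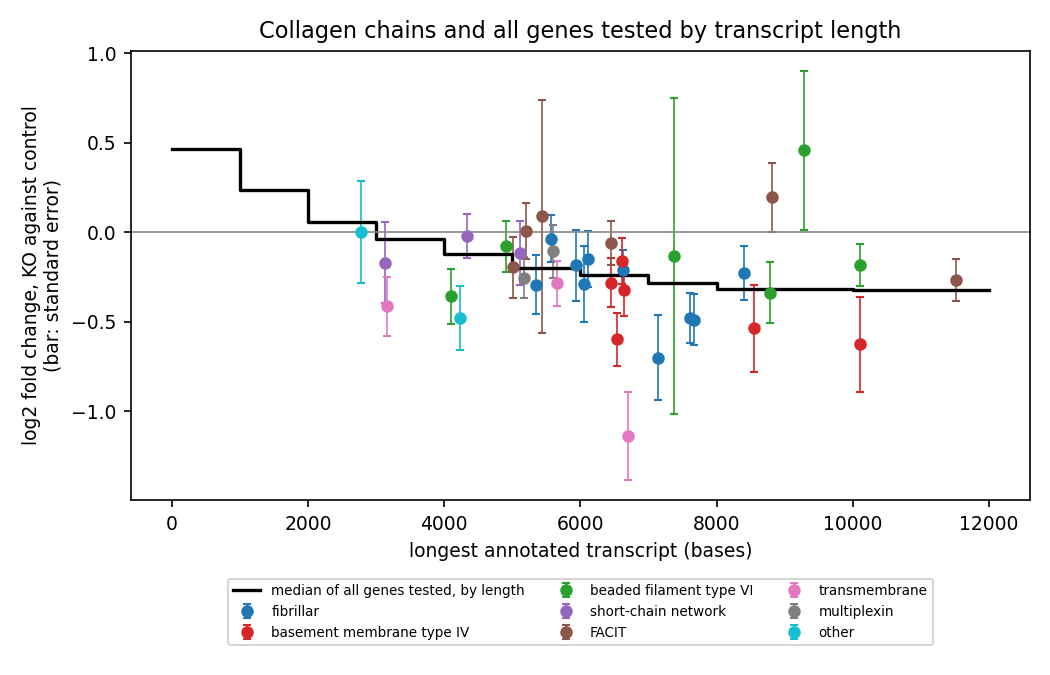
Log2 fold change of each collagen gene with its standard error as a bar, by length of its longest annotated transcript in bases. The black steps are the median of all genes tested in each length range, from 0.46 under 1000 bases to -0.32 at 10000 to 12000 bases. Most collagens lie near the steps, while Col25a1 lies under them.

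The other genes of the collagen pathway were counted by list. Of 27 genes of the noncollagen dermal matrix, such as fibronectin, elastin, fibrillin and decorin, 0 passed in edgeR, with a median of -0.13. At an unadjusted p under 0.05, 3 were lower (10.3% of all genes) and 1 higher (11.6%). DESeq2 called Fbn2 and Thbs1 lower (4.77% of all genes). Of 29 genes that modify, trim and crosslink procollagen, 1 fell, 0 rose and 28 did not pass in edgeR (1.05% of all genes were lower), with a median of 0.050. At an unadjusted p under 0.05, 5 were lower (10.3% of all genes) and 1 higher (11.6%), and DESeq2 called Adamts14, Lox, Loxl4 and Tll1 lower (4.77% of all genes). With length and GC offsets 2 were lower (0.647% of all genes), Loxl4 (-0.64, edgeR adjusted p = 0.0172) and Adamts14 (-0.55, 0.0399), named after their values were seen. With the length offset alone 0 were lower (0.0286% of all genes). The one that fell by the edgeR test without offsets was Lox, the lysyl oxidase that starts crosslinks between collagen chains, with 135, 154 and 138 CPM in the controls and 78.4 and 106 CPM in KO. Its groups did not overlap (fold change -0.63, SE 0.15, edgeR adjusted p = 0.0466). With length and GC offsets Lox had -0.43 and did not pass (edgeR adjusted p = 0.110).

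Of 9 tested receptors that bind collagen, 1 fell, 0 rose and 8 did not pass in edgeR (1.05% of all genes were lower). DESeq2 called 2 lower, Itga2 and Ddr2 (4.77% of all genes). The median of the 9 was -0.26, and it became 0.059 with the length offset and -0.043 with length and GC offsets. The platelet receptor gene Gp6 was at 0 counts in every library. Itga2, the integrin subunit of keratinocytes that binds fibrillar collagen, had 4.39, 3.60 and 4.76 CPM in the controls and 1.27 and 2.08 CPM in KO (fold change -1.34, SE 0.27, edgeR adjusted p = 0.0288), and missed the threshold once length and GC offsets were added (-1.05, 0.0660). The 12 tested genes of collagen turnover, such as Mmp2, Mmp14 and Ctsk, had a median of -0.020, and 0 passed by edgeR or DESeq2. At an unadjusted edgeR p under 0.05, 1 was lower (10.3% of all genes) and 1 higher (11.6%). The 17 genes of TGF-beta signalling, a main inducer of collagen genes in fibroblasts, had a median of -0.087, and 0 passed in edgeR. At an unadjusted p under 0.05, 2 were lower (10.3% of all genes), and DESeq2 called 2 lower (4.77% of all genes). Summed fibroblast markers overlapped between the groups, and 0 of 10 passed in edgeR. At an unadjusted edgeR p under 0.05, 1 was lower (10.3% of all genes) and 2 higher (11.6%). DESeq2 called Pdgfra lower (4.77% of all genes).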

How the data were processed

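RNA from ear skin of 3 control and 2 KO libraries was sequenced. The deposited table holds raw read counts per Entrez gene and library, and the submitters' processing notes name HISAT2 2.0.4, DESeq2 1.16.1 and build GRCm38 (mm10). No source used here names the counting program, its annotation or its strand setting. Symbols were found for 25275 of 27179 rows in RefSeq, and transcript length and GC content came from the longest GENCODE transcript (90.5% of tested genes). Low counts were removed with filterByExpr, leaving 17472 genes, and KO was compared with control by edgeR 4.0.16 (TMM, robust quasi-likelihood F test, Benjamini-Hochberg over all tested genes, threshold 0.05) under R 4.3.3. The method was tested on simulated data with known changes. It recovered 32% of 1.5-fold, 56% of 2-fold, and 80% of both 3-fold and 4-fold changes. Of its 138 calls there, 14 were false. CPM are TMM-scaled. Libraries held 32353957 to 79160005 counts, and 1 read was worth 0.0119 to 0.0303 CPM. Alternatives were 16 other fits, among them DESeq2 1.42.0, limma 3.58.1 and smooth offsets on length and GC (mgcv 1.9.3). Ratios were tested by exact permutation (scipy 1.17.1).

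Members and lists were chosen with earlier results of these data known. The comparison with genes of like length and the count without overlap on library size alone were chosen after the values were seen. Genes named with values by rule were those past the threshold, the highest chain of each class, non-overlapping genes of at least 1 CPM with an absolute log2 fold change of at least 0.5, and both chains of each ratio (24 genes). Other collagens named were chosen after their values were seen. Col21a1 was not analysed here. No 2 libraries of a group agreed within sampling noise (chi-square per degree of freedom 23.3 to 79.4). Some genes counted in the lists are not reported by name here.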

Additional observations from a re-analysis of the deposited data

How the results depend on the processing

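The number of genes called over the whole table was 657 and became 1808 with the DESeq2 test, 22 with the length offset, 1242 on library size alone, 1036 without a count filter and 2037 with the replicate block. Leaving out 1 library gave 0 to 3277. The collagen count of 1 became 4 with the DESeq2 test, 2 at 1 CPM in 2 libraries, 0 with the length offset and with length and GC, 4 on library size alone, 2 without a count filter and 3 with the replicate block, and 0 to 5 with 1 library left out. The highest of these, 3277 and 5, came without control replicate 3, and the count of 0 over all genes without control replicate 1. The collagen median moved to -0.032 with the length offset and to -0.36 on library size alone, which moved the median of all genes to -0.16. Collagens lower without overlap numbered 17 of 38, where 20.0% of all genes tested were lower without overlap. On library size alone they numbered 26. The share of all genes in that setting is not given here, so these counts cannot be compared. Replicate numbers are shared between groups in the titles, but no label gives a pairing. Deviations of same-numbered libraries correlated over genes with r of 0.016 and 0.064, and those of control replicate 3 and KO replicate 1 with r of 0.047. The deviations of 2 KO libraries from their mean mirror each other, so these values cannot settle a pairing.

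Signs turned for some genes. With length and GC offsets Col3a1 was 0.12, Col5a2 0.020, Col6a2 0.011, Col6a3 0.051 and Col8a1 0.087. With the length offset Col18a1 was 0.086, Col1a1 0.023, Col3a1 0.16, Col4a1 0.083, Col5a1 0.062, Col5a2 0.031, Col6a2 0.072, Col6a3 0.14, Col8a1 0.055 and Col8a2 0.088. Col16a1 was -0.14 on library size alone. With the replicate block Col18a1 was 0.049, Col1a1 0.084, Col6a2 0.043 and Col8a2 0.041. With 1 library left out Col1a1 ran from -0.31 to 0.083, Col3a1 from -0.11 to 0.045, Col6a2 from -0.19 to 0.045, Col8a1 from -0.26 to 0.092, Col8a2 from -0.11 to 0.064, Col16a1 from -0.10 to 0.17 and Col18a1 from -0.18 to 0.049. Ratio differences ran from -0.062 to 0.24 for Col4a3 to Col4a4, from -0.57 to 0.00029 for Col4a5 to Col4a6, from -0.15 to 0.14 for Col5a1 to Col5a2, from -0.28 to 0.18 for Col8a1 to Col8a2 and from -0.54 to 0.062 for Col11a1 to Col11a2. The cause was not tested.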
